A study of Mus musculus with 4 samples.

Results

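Myc and 49 further genes that drive or carry out ribosome assembly in the nucleolus were followed between the CNS and the draining lymph node (dLN) in EAE, the mouse model of multiple sclerosis. The 50 genes were picked by name and role, with earlier results of these data known but without a threshold on their values. All 50 came from the 23990 gene symbols of the deposited tables and were among the 10634 genes tested. They comprise 5 genes of the Myc network (Myc, Max, Mxd1, Mxd4, Mxi1) and 45 ribosome biogenesis genes, of which 6 serve RNA polymerase I. Effector CD4 cells (CD44+CD4) had been sorted at disease onset from spinal cords and from pooled dLN of C57BL/6 wild type mice (C57BL/6J in the Methods) that had received MOG peptide in complete Freund's adjuvant with pertussis toxin. There were 2 libraries from CNS and 2 from dLN. Both groups share genotype, strain, immunization and disease stage (no age is given in the sources used here). They differ in sex-linked transcripts, which read as male in CNS and female in dLN, so the sex of the animals goes with tissue. The Methods add that sorted cells were stimulated with PMA and ionomycin, which activate T cells without antigen, whereas the labels name no stimulation and describe freshly sorted cells. Values are FPKM, a count of mapped fragments divided by transcript length and by library size, and were summed over the transcripts of a gene. Nothing in the labels says whether the 2 libraries of a tissue came from separate mice, so p-values measure the spread between these libraries only.

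Ribosomes are built in the nucleolus. RNA polymerase I transcribes the long precursor of the ribosomal RNAs, small nucleolar ribonucleoproteins (snoRNPs) guide its methylation, pseudouridylation and early cleavage, and assembly factors then fold and trim it into the small and the large subunit. Myc is a transcription factor that pairs with Max, binds the E-box CACGTG and is known to raise transcription of many of these genes when a resting T cell is activated and grows. Proteins of the Mxd family, to which Mxd1, Mxd4 and Mxi1 belong, pair with Max at the same sites and repress.

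Of the 45 ribosome biogenesis genes, 44 were lower in CNS effector CD4 cells than in those from dLN at a Benjamini-Hochberg adjusted p under 0.05 in limma, none was higher, and Ubtf did not pass. Of all genes tested, 37.2% were lower and 37.8% higher by the same rule, 74.9% in all. At least a 2-fold difference as well was met by 42 of the 45 genes, against 18.2% of all genes that were lower by that much. The median log2 ratio of the 45 genes, CNS over dLN on the log2(FPKM + 1) scale, was -2.40, beside 0.05 over all genes tested. In all 45 genes the higher CNS value lay below the lower dLN value, including Ubtf, where 43.7% of all genes tested were separated in that direction. Summed over the 45 genes the level was 1939 and 1967 FPKM in CNS against 7671 and 8252 FPKM in dLN. This sum was 0.337% and 0.326% of the FPKM of all genes in the CNS libraries and 1.49% and 1.61% in the dLN libraries. In bulk RNA, fewer cells that express a gene and less RNA per cell cannot be told apart.

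**Figure D1:**
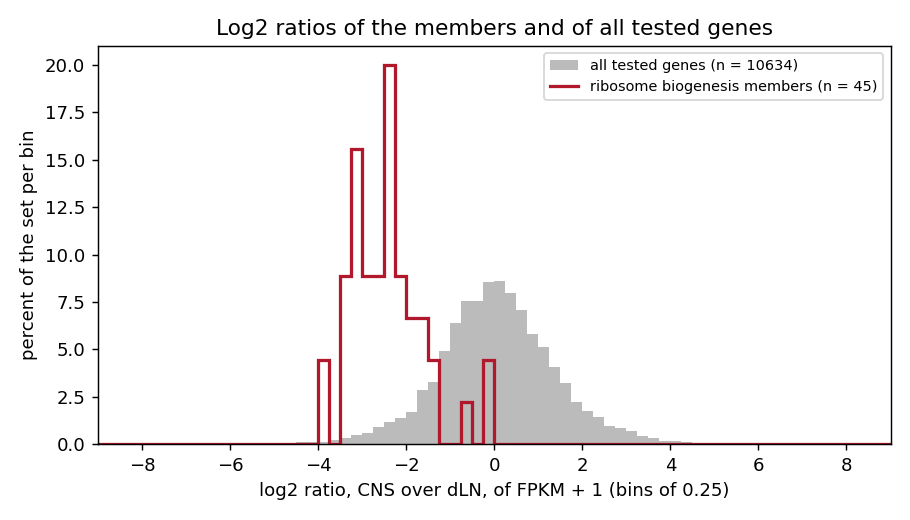
Percent of genes (y axis) per bin of 0.25 of the log2 ratio, CNS over dLN, of FPKM + 1 (x axis), for all 10634 tested genes (grey) and the 45 ribosome biogenesis genes (red line). The red line lies to the left of 0 throughout, with a median of -2.40, while the grey bars centre near 0.05.

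The 4 libraries differed in other ways that bear on these values. Depth was estimated, from the whole fragments that low FPKM values stand for, at between 18.4 M and 21.9 M mapped fragments. No member was below 1.09 FPKM in any library. Of 8 T-cell markers 5 were higher and 2 lower in CNS, and Cd4 itself was at 502 and 531 FPKM in CNS against 82.0 and 66.7 FPKM in dLN. Of 13 myeloid markers 7 were higher in CNS, with a summed level of 24.3 and 467 FPKM in CNS replicates 1 and 2 against 4.44 and 4.17 FPKM in dLN. Aif1, Csf1r, C1qa, C1qb, C1qc, Tyrobp, S100a8 and S100a9 were listed at 0 in both dLN libraries. S100a8 was at 0 and 101 FPKM and S100a9 at 0.767 and 96.0 FPKM in CNS replicates 1 and 2. The summed level of 5 B-cell markers was between 0.258 and 1.76 FPKM in the 4 libraries with Pax5 at 0 throughout, that of 6 CD8 T-cell and NK-cell markers between 3.40 and 9.76 FPKM with Klra1 at 0, and that of 8 neural markers between 49.8 and 58.0 FPKM, most of it Mbp. Of these 3 lists, 1 gene of 1 tested, 1 of 2 and 1 of 3 were higher in CNS. Y-linked Ddx3y was at 12.7 and 11.2 FPKM in CNS and listed at 0 in dLN. Xist was at 0 and 0.0026 FPKM in CNS against 26.6 and 22.3 FPKM in dLN. The sex read from these transcripts thus differed between the tissues. Sex and tissue therefore cannot be told apart for any gene, the 50 members included. The part of the myeloid transcripts in the member results was not tested. Without CNS replicate 2, 45 of the 50 genes were lower and 3 higher in CNS, and the summed myeloid level of the remaining CNS library was still above that of dLN.

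Within the Myc network, Myc itself was far lower in CNS than in dLN, and the repressors Mxd1, Mxd4 and Mxi1 were higher. Myc (chr15:61985341-61990361, mm10, plus strand) was at 22.1 and 26.5 FPKM in CNS replicates 1 and 2, against 363 and 417 FPKM in dLN replicates 1 and 2. Both dLN values were thus an order of magnitude above both CNS values, a 16.0-fold difference of the means and a log2 ratio of -3.95 (SE 0.13, limma adjusted p = 8.12e-05). Counted from the lowest log2 ratio, Myc ranked 57 of the 10634 genes tested. Mxd1 (chr6:86647045-86669159), a repressor that replaces Myc on Max as cells leave growth, was at 36.5 and 47.9 FPKM in CNS against 6.59 and 4.88 FPKM in dLN. It was 7.36-fold higher in CNS, a log2 ratio of 2.68 (SE 0.19, limma adjusted p = 0.000275). Mxd4 (chr5:34176580-34187710), of the same family, was at 28.7 and 36.0 FPKM in CNS against 2.23 and 1.09 FPKM in dLN. That is the largest rise of the 50 genes, 19.5-fold with a log2 ratio of 3.67 (SE 0.24, limma adjusted p = 0.000228), although the dLN replicates differed between themselves by more than a factor of 1.5. Exons of Gm42846 on the other strand cover 13.2% of the exon bases of Mxd4, and no level of Gm42846 was used here. Mxi1 (chr19:53310506-53375810), also a repressor on Max, was at 5.75 and 6.75 FPKM in CNS against 2.61 and 1.96 FPKM in dLN, and was higher in CNS by a log2 ratio of 1.15 (SE 0.15, limma adjusted p = 0.00179). The CNS libraries lay above the dLN libraries for Mxd1, Mxd4 and Mxi1, a direction shown by 45.7% of all genes tested.

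Max (chr12:76937269-76962248), the shared partner, was at 36.6 and 38.9 FPKM in CNS against 46.6 and 45.3 FPKM in dLN. The difference was small, 1.22-fold with a log2 ratio of -0.28 (SE 0.08, limma adjusted p = 0.0307), and the call was lost when all libraries were given the same upper quartile (adjusted p = 0.161 in limma) and when any library other than CNS replicate 2 was left out. The ratio of Myc to Max FPKM within a library was 0.605 and 0.681 in CNS and 7.78 and 9.22 in dLN. The ratio of Myc to the sum of Mxd1, Mxd4 and Mxi1 was 0.312 and 0.292 in CNS and 31.7 and 52.7 in dLN, so the gene with the highest level was Myc in both dLN libraries, whereas in both CNS libraries Myc lay below Mxd1 and Mxd4.

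**Figure D2:**
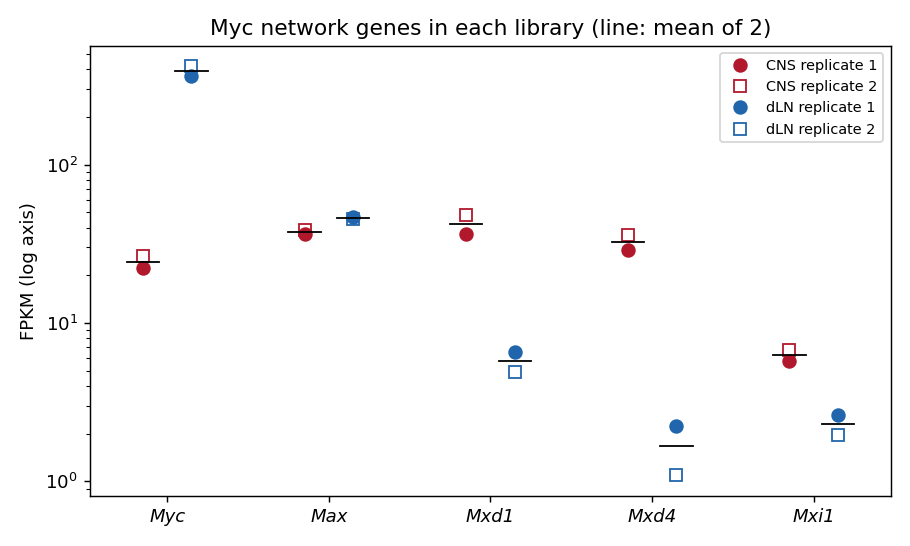
FPKM on a log axis (y axis) of the 5 Myc network genes (x axis) in the 2 CNS libraries (red) and the 2 dLN libraries (blue), with the mean of each tissue as a line. Myc falls from 363 and 417 FPKM in dLN to 22.1 and 26.5 FPKM in CNS, Mxd1, Mxd4 and Mxi1 lie higher in CNS, and Max stays between 36.6 and 46.6 FPKM.

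The E-box read by Myc, Max and Mxd proteins was looked for in the promoters of the members. RefSeq promoters of build GRCm38.p6, each 250 bases before to 50 bases after a gene's start, matched 44 of the 50 genes by symbol. The letters CACGTG, which read the same on both strands, were in 10 of the 44 (22.7%), beside 8.09% of 27025 genes with a promoter and 12.3% of the 8022 of these that were tested. The 10 were Imp4, Max, Mxd4, Mybbp1a, Nop2, Pes1, Tsr1, Utp18, Utp20 and Wdr43. In Imp4, Mxd4, Nop2 and Utp18 the motif lies wholly before the start and clear of it, and these stretches, each with up to 60 bases on either side, are shown because they hold the same letters beside genes with opposite log2 ratios (3.67 for Mxd4, -3.42 for Nop2). The motif is in capitals.
Nop2, chr6:125131763-125131882, plus strand: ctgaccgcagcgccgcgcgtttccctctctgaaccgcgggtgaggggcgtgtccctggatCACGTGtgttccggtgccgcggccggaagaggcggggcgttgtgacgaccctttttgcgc
Imp4, chr1:34439648-34439773, plus strand: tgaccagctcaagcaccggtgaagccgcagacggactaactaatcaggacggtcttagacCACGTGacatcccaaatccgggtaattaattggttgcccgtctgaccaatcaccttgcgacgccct
Utp18, chr11:93885767-93885846, minus strand: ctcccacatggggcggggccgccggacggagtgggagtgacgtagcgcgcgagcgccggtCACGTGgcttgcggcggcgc
Mxd4, chr5:34187864-34187960, minus strand: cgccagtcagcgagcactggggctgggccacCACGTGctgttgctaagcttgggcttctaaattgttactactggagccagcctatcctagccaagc
A match is a run of letters in a window and shows no binding.

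RNA polymerase I genes spanned nearly the whole range of log2 ratios of the 45 ribosome biogenesis genes. Polr1b (chr2:129100996-129126595), which with Polr1a forms the catalytic centre, was at 3.56 and 3.43 FPKM in CNS against 63.7 and 68.1 FPKM in dLN. This 18.9-fold difference was the largest in FPKM among the 45 genes, with a log2 ratio of -3.90 (SE 0.09, limma adjusted p = 8.12e-05). Polr1a, the largest subunit, was at 7.37 and 6.89 FPKM in CNS against 36.1 and 38.7 FPKM in dLN, a log2 ratio of -2.24 (SE 0.09, limma adjusted p = 9.15e-05). Polr1e, part of the subunit pair that helps the enzyme start, was at 4.07 ± 0.0668 FPKM in CNS against 19.1 ± 0.262 FPKM in dLN (SD, n = 2 each), a log2 ratio of -1.99. The subunits shared with RNA polymerase III had smaller differences. Polr1c was at 33.2 and 39.6 FPKM in CNS against 95.6 and 103 FPKM in dLN (log2 ratio -1.43). Polr1d (chr5:147077346-147111361) was at 220.0 and 210.3 FPKM in CNS against 246 and 265 FPKM in dLN, a log2 ratio of -0.25 (SE 0.08, limma adjusted p = 0.0392). Its groups did not overlap, but the call was lost when any 1 library was left out (adjusted p between 0.0638 and 0.215 in limma) and with the same upper quartile (0.295). Ubtf (chr11:102304563-102319096), the factor that holds ribosomal DNA open for RNA polymerase I, was at 37.5 and 39.9 FPKM in CNS against 45.6 and 43.9 FPKM in dLN, a log2 ratio of -0.21 (SE 0.08, limma adjusted p = 0.0762). It passed when every library was given the same sum, which moved the median of all genes by -0.17 (Ubtf log2 ratio -0.40, adjusted p = 0.00815 in limma).

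A list of 14 other genes of this machinery gave a like spread, with 10 lower, 1 higher and 3 that did not pass, and a median log2 ratio of -1.30. Cd3eap, the partner of Polr1e in the enzyme, was at 3.47 and 3.64 FPKM in CNS against 29.0 and 30.9 FPKM in dLN (log2 ratio -2.76). Taf1a, a subunit of the promoter selectivity factor, had a log2 ratio of -2.71 and Rrn3, which carries the enzyme to the promoter, one of -1.96. Taf1b, another subunit of that selectivity factor, was higher in CNS, at 22.3 and 17.1 FPKM in CNS against 12.9 and 11.5 FPKM in dLN (log2 ratio 0.64). Znrd1, Polr2k and Ttf1 had log2 ratios of -0.04, -0.16 and -0.24 and did not pass.

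The abundant nucleolar proteins were lower in CNS in all 6 cases (median log2 ratio -2.28). Npm1 (chr11:33152498-33163206), nucleophosmin, a chaperone of histones and ribosomal proteins, had the highest level of the 50 genes, at 688 and 644 FPKM in CNS against 1976 and 2082 FPKM in dLN. Its log2 ratio of -1.61 (SE 0.07, limma adjusted p = 9.96e-05) was among the smaller ones. It made up 35.4% and 32.7% of the summed FPKM of the 45 genes in CNS and 25.8% and 25.2% in dLN. Ncl (chr1:86344719-86359455), nucleolin, which binds the ribosomal RNA precursor, was at 103 and 98.6 FPKM in CNS against 478 and 515 FPKM in dLN, a log2 ratio of -2.29 (SE 0.08, limma adjusted p = 8.45e-05). Ddx21, a helicase that acts on the same precursor, was at 53.0 ± 0.676 FPKM in CNS against 261 ± 15.8 FPKM in dLN (SD, n = 2 each), a log2 ratio of -2.28. Nolc1, a phosphoprotein that escorts snoRNPs, was at 16.9 and 18.9 FPKM in CNS against 166 and 182 FPKM in dLN, a log2 ratio of -3.21 (SE 0.10, limma adjusted p = 8.12e-05). Mybbp1a, which takes part in synthesis and processing of ribosomal RNA, was at 29.8 and 33.0 FPKM in CNS against 256 and 282 FPKM in dLN (log2 ratio -3.06). Npm3, a partner of Npm1 singled out after its values were seen, had the smallest difference of these 6, at 129 and 137 FPKM in CNS against 202 and 249 FPKM in dLN (log2 ratio -0.75, limma adjusted p = 0.00379). A processed pseudogene, Npm3-ps1, is annotated for it, so reads could be shared with that copy, which was not tested.

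All 7 snoRNP proteins were lower in CNS, between 5.28-fold and 11.3-fold in FPKM (median log2 ratio -3.02). Among proteins of the methylation guides, fibrillarin (Fbl), the methyltransferase, was at 75.3 and 105 FPKM in CNS against 506 and 555 FPKM in dLN, a log2 ratio of -2.56 (SE 0.17, limma adjusted p = 0.000243). The 2 CNS libraries differed more for Fbl than for most members, yet stayed far below dLN. Nop56, a core protein of the same particle, was at 32.8 and 35.0 FPKM in CNS against 272 and 303 FPKM in dLN (log2 ratio -3.05), and its partner Nop58 at 31.2 ± 1.20 FPKM in CNS against 261 ± 4.66 FPKM in dLN (SD, n = 2 each), a log2 ratio of -3.02. Rrp9, of the particle that guides the early cleavages, was at 13.6 and 18.8 FPKM in CNS against 131 and 154 FPKM in dLN, a log2 ratio of -3.07 (SE 0.18, limma adjusted p = 0.000171). Dkc1, the pseudouridine synthase, also part of telomerase, was at 11.3 and 10.7 FPKM in CNS against 122 and 127 FPKM in dLN, a log2 ratio of -3.39 (SE 0.08, limma adjusted p = 8.12e-05). It lies on the X chromosome. Its particle partners Gar1 and Nhp2 had log2 ratios of -2.36 and -2.53. A list of 8 other snoRNP genes was lower in all 8 cases, with a median of -2.18. Naf1, an assembly factor of the pseudouridylation guides, had a log2 ratio of -2.86, and the helicases Ruvbl2 and Ruvbl1, which help assemble the particles, of -2.64 and -2.56.

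The 13 small subunit assembly genes were all lower in CNS, with log2 ratios from -3.46 to -1.42 and a median of -2.51. Rrp12, a HEAT-repeat factor of late small subunit maturation and export, was at 4.65 and 5.23 FPKM in CNS against 60.9 and 67.7 FPKM in dLN, a log2 ratio of -3.46 (SE 0.10, limma adjusted p = 8.12e-05) and a 13.0-fold difference in FPKM. Heatr1, an early component that also promotes transcription of ribosomal DNA, was at 6.87 and 6.77 FPKM in CNS against 66.2 and 72.9 FPKM in dLN, a log2 ratio of -3.17 (SE 0.09, limma adjusted p = 8.12e-05). Wdr43, of the same subcomplex as Heatr1, was at 20.6 and 18.5 FPKM in CNS against 111 and 120.4 FPKM in dLN (log2 ratio -2.51). Wdr75 and Utp15, which also sit in that subcomplex, were at 9.23 FPKM in CNS against 76.9 FPKM in dLN and at 6.22 FPKM in CNS against 35.0 FPKM in dLN. Utp20, a very large scaffold protein, had the lowest CNS level of the 45 genes, at 2.84 ± 0.231 FPKM in CNS against 33.6 ± 1.33 FPKM in dLN (SD, n = 2 each), a log2 ratio of -3.17. Imp3, which binds the guide RNA of the early cleavages, had the highest level and the smallest difference of the 13, at 47.7 and 55.7 FPKM in CNS against 137 and 142 FPKM in dLN, a log2 ratio of -1.42 (SE 0.10, limma adjusted p = 0.000298). Its partner Imp4 had a log2 ratio of -1.75. Nop14 and its partner Noc4l had log2 ratios of -2.13 and -2.80, the helicase Ddx10 and the scaffold protein Utp18 of -1.61 and -1.80, and Tsr1, which acts on late precursors, of -2.97. Exons of Srr on the other strand cover 34.2% of the exon bases of Tsr1, but Srr itself was at 2.72 FPKM or less in every library. A list of 37 other small subunit assembly genes had 35 lower and none higher, with a median of -1.86. Rcl1 was at 8.68 and 9.37 FPKM in CNS against 125 and 135 FPKM in dLN (log2 ratio -3.71), Pwp2 and Cirh1a had log2 ratios of -3.69 and -2.75, and Ngdn (-0.18) and Ddx52 (0.13) did not pass.

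All 13 large subunit assembly genes were lower in CNS as well, with log2 ratios from -3.95 to -1.78 and a median of -2.40. Gnl3 (chr14:31012433-31019131), nucleostemin, a nucleolar GTPase abundant in dividing and stem cells, was at 7.74 and 7.99 FPKM in CNS against 129.6 and 143 FPKM in dLN. With a log2 ratio of -3.95 (SE 0.09, limma adjusted p = 8.12e-05), or 17.3-fold in FPKM, it lay next to Myc and Polr1b at the low end of the 50 genes. Nop2, a methyltransferase of the large subunit RNA, was at 10.7 and 12.6 FPKM in CNS against 127 and 141 FPKM in dLN, a log2 ratio of -3.42 (SE 0.12, limma adjusted p = 8.29e-05). Nop16 was at 9.63 ± 1.02 FPKM in CNS against 109 ± 1.26 FPKM in dLN (SD, n = 2 each), a log2 ratio of -3.37, and Rrs1, which helps bring in the smallest ribosomal RNA, at 12.9 and 12.4 FPKM in CNS against 93.3 and 100.4 FPKM in dLN (log2 ratio -2.84). Nip7, which works beside Nop2, had a log2 ratio of -2.68.

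The PeBoW complex, made of Pes1, Bop1 and Wdr12, is needed to mature the large subunit RNA. Its genes had some of the smaller differences of the 13, and Pes1 was at 25.9 ± 0.710 FPKM in CNS against 113 ± 3.52 FPKM in dLN (SD, n = 2 each), a log2 ratio of -2.09. Bop1 was at 20.1 ± 3.33 FPKM in CNS against 86.8 ± 5.74 FPKM in dLN (SD, n = 2 each), a log2 ratio of -2.06, and Wdr12 at 11.4 ± 0.257 FPKM in CNS against 41.6 ± 1.25 FPKM in dLN (SD, n = 2 each), a log2 ratio of -1.78. The differences between these genes and the other large subunit genes were not tested. Noc2l had the highest level of the 13, at 28.1 and 32.2 FPKM in CNS against 146 and 157 FPKM in dLN, a log2 ratio of -2.29 (SE 0.10, limma adjusted p = 9.81e-05). Exons of Samd11 on the other strand cover 20.9% of the exon bases of Noc2l, and Samd11 was listed at 6.03 and 4.65 FPKM in CNS and 18.1 and 19.1 FPKM in dLN. The RNA helicase Ddx18 was at 26.7 and 24.7 FPKM in CNS against 130.1 and 140.5 FPKM in dLN (log2 ratio -2.35). The helicases Ddx27 and Ddx56 had log2 ratios of -2.28 and -2.46, and Wdr74, which works on nucleolar large subunit precursors, one of -2.40. Of 42 other large subunit assembly genes, 40 were lower and 2 higher, with a median of -2.03. Ppan was at 7.04 and 9.58 FPKM in CNS against 146 and 166 FPKM in dLN (log2 ratio -4.09), and Mdn1, the giant ATPase that strips factors from the precursor, and Noc3l, a partner of Noc2l, had log2 ratios of -3.46 and -3.18. Nsa2 was higher in CNS, at 174 and 154 FPKM in CNS against 105 and 106 FPKM in dLN (log2 ratio 0.63), as was Zfp622 (0.38), which acts late in the cytoplasm.

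Over the 4 lists of other ribosome biogenesis genes together, 93 of 101 were lower (92.1%, beside 37.2% of all genes tested). The others were 3 that were higher (Taf1b, Nsa2, Zfp622) and 5 that did not pass, and the median was -1.83. By list, 71.4% of RNA polymerase I, 100% of snoRNP, 94.6% of small subunit and 95.2% of large subunit genes were lower. These lists, like the members, were drawn up with earlier results of these data known.

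**Figure D3:**
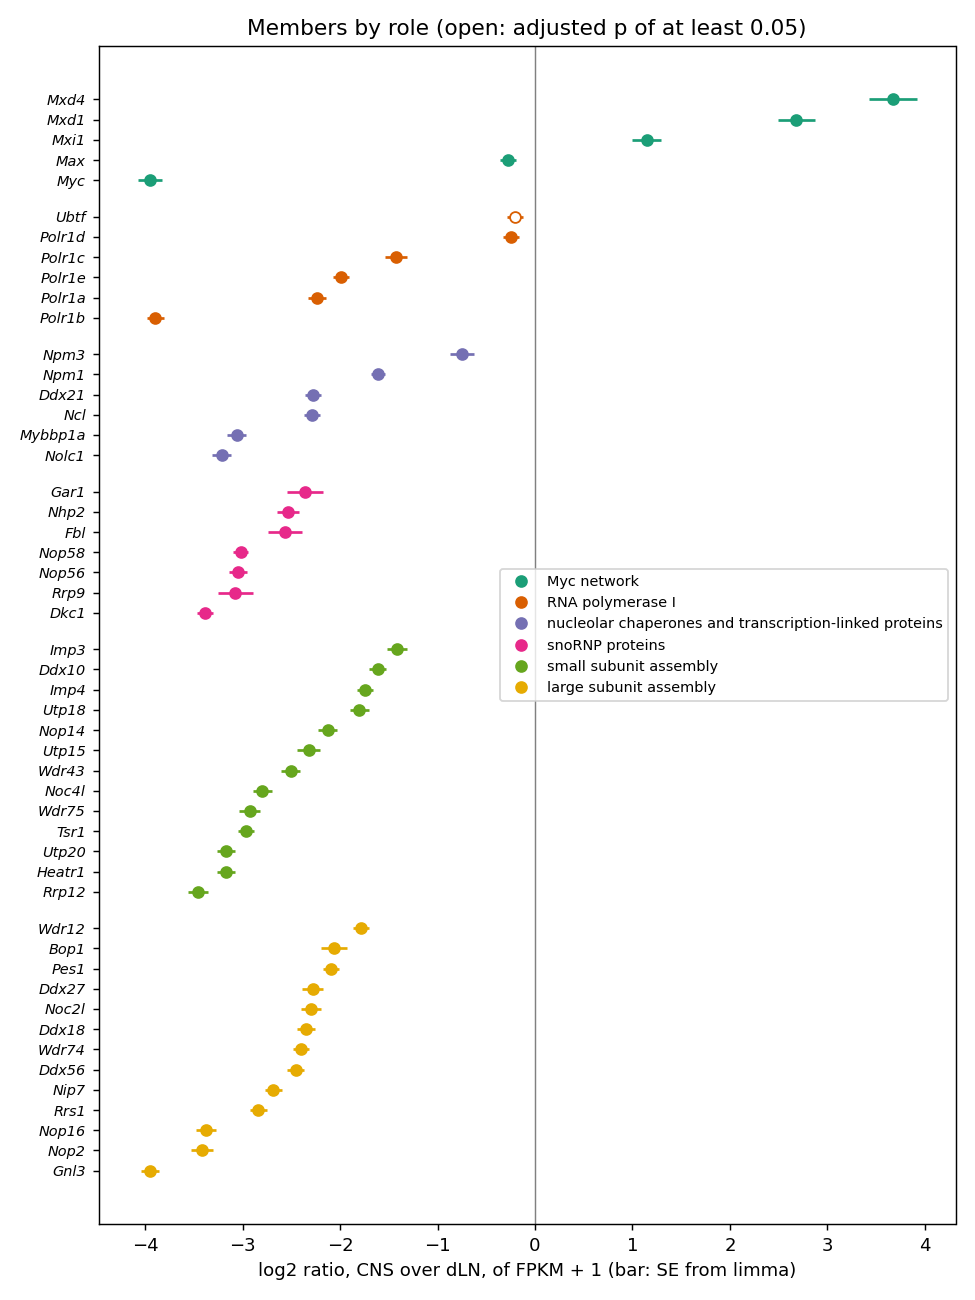
Log2 ratio, CNS over dLN, of FPKM + 1 (x axis) for each of the 50 genes (y axis), grouped and coloured by role, with the SE from limma as a bar and an open point where the adjusted p was at least 0.05. Only Mxd4, Mxd1 and Mxi1 lie to the right of 0, Max, Ubtf and Polr1d lie within 0.28 of it, and Myc, Gnl3 and Polr1b lie between -3.95 and -3.90.

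Max, Ubtf and Polr1d, with a small change in the sum of transcripts, still differed in single transcripts. Npm1, with a larger change in the sum, differed in the shares of its transcripts. How reads were split between transcripts of a gene is an estimate of the authors' program, so these values are given without a test. The Max transcript of 2005 bases was at 8.44 and 9.25 FPKM in CNS against 20.5 and 20.2 FPKM in dLN, while that of 1978 bases was at 28.1 and 29.7 FPKM in CNS against 26.1 and 25.1 FPKM in dLN. The first lay lower and the second slightly higher in CNS. Ubtf had a transcript of 4443 bases that starts further downstream than the other Ubtf transcripts, and it was at 14.4 and 10.6 FPKM in CNS against 0.164 and 1.63 FPKM in dLN. The longest Ubtf transcript, of 4689 bases, was at 15.3 and 15.6 FPKM in CNS against 27.8 and 21.6 FPKM in dLN, and that of 4578 bases at 6.72 and 13.3 FPKM in CNS against 16.8 and 19.9 FPKM in dLN. The transcript that starts downstream was thus 38.3% and 26.5% of Ubtf in the CNS libraries and 0.359% and 3.71% in the dLN libraries. For Polr1d, the transcript of 900 bases, which ends early, was at 126 and 115 FPKM in CNS against 173 and 188 FPKM in dLN, and the one of 1137 bases at 94.3 and 95.0 FPKM in CNS against 72.5 and 76.8 FPKM in dLN. Each lay outside the range of the other tissue, in opposite directions. Npm1 had a transcript of 1288 bases with a different end, at 108 and 113 FPKM in CNS against 601 and 638 FPKM in dLN, beside the main one of 1422 bases at 577 and 529 FPKM in CNS against 1365 and 1434 FPKM in dLN. The shorter was 15.7% and 17.5% of Npm1 in CNS and 30.4% and 30.6% in dLN.

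**Figure D4:**
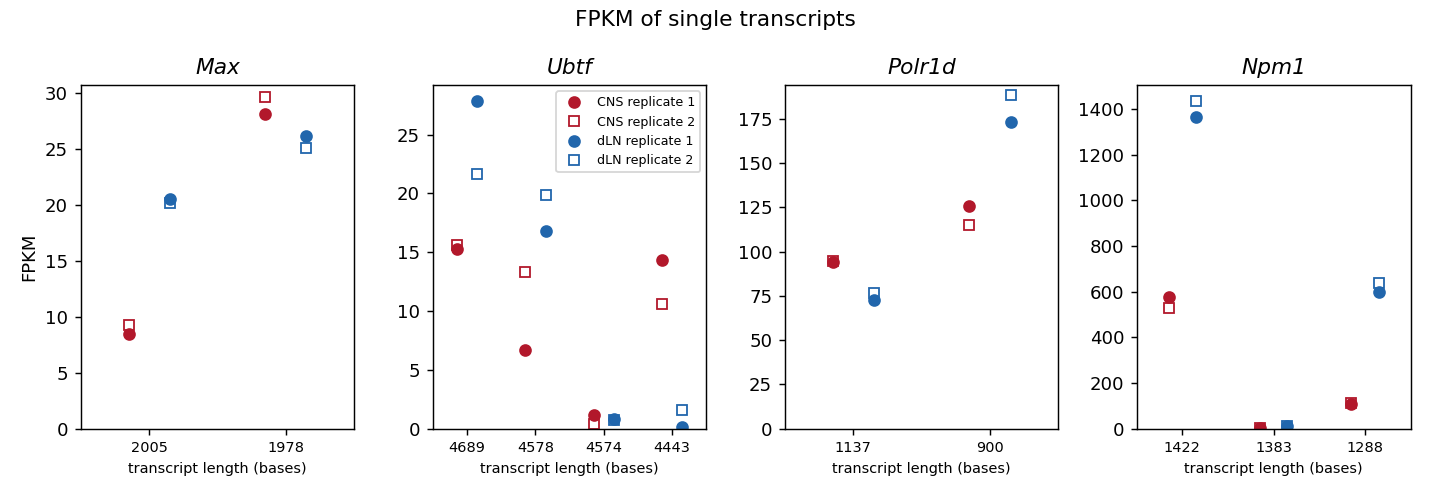
FPKM (y axis) of single transcripts, named by their length in bases (x axis), of Max, Ubtf, Polr1d and Npm1 in the 2 CNS libraries (red) and the 2 dLN libraries (blue). The Ubtf transcript of 4443 bases reads 14.4 and 10.6 FPKM in CNS and at most 1.63 FPKM in dLN, and the Polr1d transcripts order the tissues in opposite ways.

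Genes known as Myc targets outside ribosome assembly were lower too. Of 24 listed genes 23 were tested, as Tert did not reach the FPKM minimum. Of the 23, 22 were lower (95.7%, beside 37.2% of all genes tested) and 1 was higher, with a median log2 ratio of -2.09. Srm, spermidine synthase, was at 12.5 and 17.2 FPKM in CNS against 284 and 314 FPKM in dLN (log2 ratio -4.25). Pus7, a pseudouridine synthase, had a log2 ratio of -3.99 and Rcc1, the exchange factor of Ran, one of -3.22. Ldha, which makes lactate, was the exception, at 646 and 708 FPKM in CNS against 485 and 418 FPKM in dLN (log2 ratio 0.59, limma adjusted p = 0.0052). Of 9 other genes of the Myc network 6 reached the FPKM minimum, and 4 of these were lower. Mnt, another repressor on Max, was at 6.36 and 7.04 FPKM in CNS against 17.0 and 18.1 FPKM in dLN (log2 ratio -1.27), so it moved against Mxd1 and Mxd4. Mxd3, also of the Mxd family, was at 4.99 and 4.55 FPKM in CNS against 4.13 and 1.34 FPKM in dLN. It did not pass (log2 ratio 0.74, limma adjusted p = 0.137). Mga and Mlxip had log2 ratios of -1.24 and -1.04, and Mycn, Mycl and Mlxipl each stayed at 0.297 FPKM or less in every library.

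Cell division genes did not show the members' pattern of calls. Of 14, only Mcm3 was lower in CNS (log2 ratio -0.49), Mcm4 and Mcm7 were higher (0.56 and 0.37), and 11 did not pass, with a median of -0.06. Pcna, the sliding clamp of DNA replication, was at 205 and 202 FPKM in CNS against 214 and 217 FPKM in dLN. Mki67, which marks cycling cells, was at 16.6 ± 2.39 FPKM in CNS against 13.2 ± 5.95 FPKM in dLN (SD, n = 2 each), a wide spread in dLN. Ccnb1, with the lowest log2 ratio of the list, was at 5.43 and 4.89 FPKM in CNS against 17.7 and 7.37 FPKM in dLN. Its log2 ratio was -1.03 (SE 0.39, limma adjusted p = 0.0619). Where replicates spread this widely, a missing call does not show equal levels. Genes that stimulation induces in T cells were mostly lower in CNS. Of 17, 13 were lower (76.5%, beside 37.2% of all genes tested), 3 higher and 1 did not pass, with a median of -2.65. Il2 was at 18.2 and 38.8 FPKM in CNS against 5363 and 6176 FPKM in dLN, whereas Fos was at 442 and 574 FPKM in CNS against 43.6 and 58.9 FPKM in dLN. Junb and Cd69, the other genes of this list that were higher, had log2 ratios of 2.38 and 1.32. Myc is itself a gene that stimulation of T cells induces, and the part of stimulation in the member results was not tested.

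**Figure D5:**
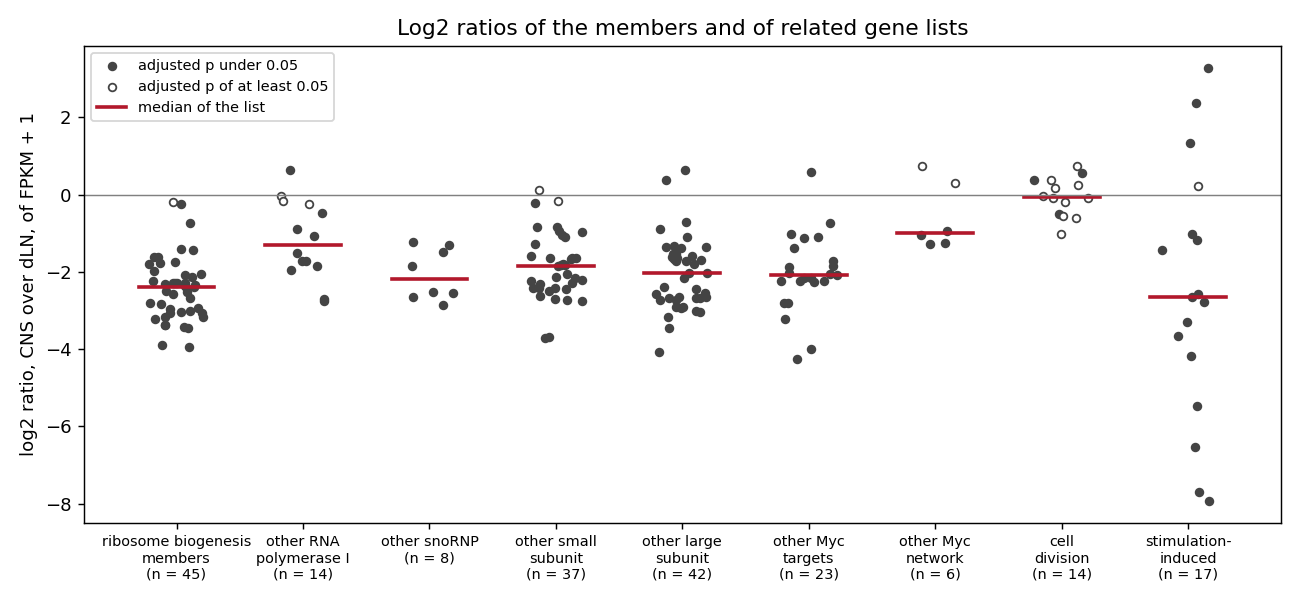
Log2 ratio, CNS over dLN, of FPKM + 1 (y axis) for each tested gene of the ribosome biogenesis members and of 8 related gene lists (x axis, n genes), filled where the adjusted p was under 0.05, with the median of each list as a red line. Medians of the 4 lists of other ribosome biogenesis genes lie between -2.18 and -1.30 and that of cell division genes at -0.06.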

How the data were processed

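The authors trimmed and mapped reads and deposited FPKM per RefSeq transcript (build mm10), in 1 table per tissue, so table and tissue cannot be told apart. The aligner and the program that computed FPKM are not given in the sources used here. In the CNS table a single header cell holds both library names, whose order was taken for the pair of value columns. From these values, FPKM was summed by gene symbol (565 transcripts without a symbol were left out), and genes whose mean reached 1 FPKM in CNS, dLN or both entered limma 3.58.1 (trend) in R 4.3.3 on log2(FPKM + 1), tissue as the only term, Benjamini-Hochberg over all 10634 genes. That scale understates the change of low genes. The FPKM minimum follows the Methods, which name Student's test for the study in general and none for RNA-seq in particular. Start coordinates, 0-based in the tables, are given 1-based here. Strand and overlaps came from GENCODE M21 and promoters from RefSeq.

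Depth was estimated from low FPKM values, of which 83.3% to 87.2% fell on whole fragments (within 0.05, chance 10%). Both steps were tested on simulated data. An exact permutation test of 2 against 2 cannot go below p = 0.333 (two-sided). Members and lists were chosen with earlier results of these data known. Values per library are given for the Myc network, for the 2 highest members and the 2 with the largest log2 ratio of each role, and for members that did not pass. From each list of pathway genes, the 3 largest log2 ratios and the called genes against the majority are named, and from the other lists only genes whose level stands beside a member result. Genes named beyond this were chosen after their values were seen.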

Additional observations from a re-analysis of the deposited data

How the results depend on the processing

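Of 750 comparisons of the 50 genes under 15 other settings, 730 kept direction and side of the threshold. The others were 7 of Max, 10 of Polr1d, 2 of Ubtf and 1 of Npm3. Settings that only alter the filter, the spread estimate, the replicate block or the fold minimum keep each log2 ratio. Under these the direction could not change, nor could it for genes with a single transcript when transcripts were picked. Max reversed to 0.17 (adjusted p = 0.142 in limma) when the most abundant transcript alone stood for a gene, which keeps its transcript of 1978 bases only, and Ubtf then passed at -0.64. Members lower in CNS numbered 46 and between 43 and 47 over these settings, and members higher in CNS 3 throughout. With 1 library left out they were 44 to 45, under the assumption that the lone library of a tissue varies like the other tissue. All genes called numbered 7968, 6676 to 7429 with 1 library left out, and 4168 when at least a 2-fold difference was required, because that adds a criterion. The same sum per library moved the median log2 ratio by -0.17 and the same upper quartile by 0.12.

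Replicate numbers were judged not to pair the libraries. The replicate differences of the tissues had a correlation of 0.0933 across genes, and no source describes a pairing. Sex-linked transcripts also differed between the CNS and dLN libraries, which therefore did not come from the same mice. A fit with a replicate block called 7828 genes, with 44 members lower and 3 higher, and lost the calls of Max (adjusted p = 0.0518 in limma) and Polr1d (0.0726). Depth of about 20 M fragments limits none of the members, all of which were above 1 FPKM in every library.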

Other observations

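Some members with several transcripts kept similar proportions in the 4 libraries and others did not. The Myc transcripts of 2399 and 2396 bases, which differ by 3 bases and cannot be well separated by reads, were at 69.4% to 75.6% and 24.4% to 30.6% of Myc. The Gnl3 transcript of 1926 bases made up 93.6% to 95.8% of Gnl3. The Nolc1 transcript of 3665 bases varied between replicates, at 5.18% and 19.4% of Nolc1 in CNS, with both dLN values between these, while that of 3659 bases was at 54.7% and 52.2% in CNS and 41.2% and 42.4% in dLN. The Wdr12 transcript of 2928 bases was at 50.3% and 41.1% of Wdr12 in CNS and 46.5% and 61.4% in dLN, so the tissues overlapped.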
